A study of Mus musculus with 6 samples.

Results

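The EGR, NR4A and IER early genes are 10 transcripts, Egr1, Egr2, Egr3, Nab2, Nr4a1, Nr4a2, Nr4a3, Ier2, Ier3 and Ier5, taken by symbol from a count table of 33924 mouse genes. All 10 matched a symbol of the table, and all 10 passed the filter on low counts in every comparison. Immediate early genes are transcribed within minutes of a signal, without new protein synthesis. The RAS to ERK cascade switches on the EGR zinc finger factors through serum response factor and its ternary complex partners, which bind CArG boxes and ETS sites. EGR proteins in turn induce Nab2, a corepressor that binds them and limits their output. The NR4A orphan nuclear receptors respond to antigen receptor, calcium and cyclic AMP signals, in part through CREB at CRE sites. In lymphocytes, EGR and NR4A factors are widely used as readouts of receptor signalling, and the IER proteins are a mixed group of early response regulators.

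RNA was sequenced from 3 groups with 2 libraries each, namely leukemia 92, leukemia 1 and pro-B cells of wild-type mice. Both leukemias carried the Mll-Af4 and N-RasG12D genotype. They arose in irradiated recipients of c-Kit+ Sca1+ marrow cells from Mll-Af4 mice aged 6 to 8 weeks, after retroviral delivery of Cre and of N-RasG12D from viral (MSCV) vectors, together with wild-type helper marrow. The controls were bone marrow pro-B cells sorted as B220+ CD43+ IgM-, of wild-type genotype and of an age not stated for them, and no library came from drug-treated cells. Only 2 leukemias were sampled. Whether the 2 numbered replicates of a group come from different animals is not stated, so a p-value measures the spread between these libraries, which may be technical.

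The libraries held 22153444 to 27444759 reads in genes. Levels are given as CPM, read counts scaled to library size with TMM normalisation, and 3 counts correspond to 0.111 to 0.14 CPM. The 2 libraries of leukemia 1 stood apart from each other: the SD of their log2 differences over all tested genes was 0.93, against 0.21 for leukemia 92 and 0.21 for pro-B cells. The 12 granulocyte markers summed to 16100 CPM in replicate 2 of leukemia 1, to 175 to 766 CPM in the other 3 leukemia libraries and to 419 to 442 CPM in pro-B cells. By edgeR 0 of the 12 were called in leukemia against pro-B cells, with 5 higher at an unadjusted p under 0.05 and 6 higher by DESeq2. Y-linked transcripts summed to 1205 counts in that library and 121 in replicate 1 of leukemia 1, to 0 and 6 in leukemia 92, and to 0 in both pro-B libraries. The 15 pro-B markers summed to 6080 to 7610 CPM in leukemia and 7810 to 8610 CPM in pro-B cells, with 1 higher and 4 lower. The 10 monocyte and macrophage markers summed to 716 to 3160 CPM in leukemia and 538 to 545 CPM in pro-B cells, and 5 of them rose. Markers of other cells went the other way: 13 T and NK cell markers summed to 5.65 to 61.1 against 444 to 465 CPM (5 fell), and 9 plasmacytoid dendritic cell markers to 1110 to 1650 against 4520 to 5090 CPM (6 of 9 fell). Of the 13 T and NK cell markers, 8 did not pass. In replicate 2 of leukemia 1, Cd3e (3.85 CPM), Cd3d (4.58) and Cd3g (4.88) lay above both pro-B libraries, and the others of that list below both. The NK receptor Ncr1 was at 0 in 3 of 4 leukemia libraries, and no granulocyte marker was at 0 in any library. The 10 erythroid and platelet markers summed to 2.03 to 8.62 CPM in leukemia and 52 to 124 CPM in pro-B cells, and 4 of 7 tested fell. The part of these cells in the results below was not tested, and fewer cells of a type and less RNA per cell cannot be told apart in bulk samples.

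Promoter sequences of RefSeq (GRCm38.p6) were matched for 7 of the 10 genes, and each window holds the 250 bases before an annotated start. These are shown, because they hold letters of the sites through which early genes are known to be induced: CArG boxes in Egr2, and the CRE core in the NR4A family. Capitals mark the box in Egr2, read on the plus strand at chr10:67537787-67537816 (first) and chr10:67537484-67537513 (second).
Egr2 proximal box: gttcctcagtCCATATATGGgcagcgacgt
Egr2 upstream box: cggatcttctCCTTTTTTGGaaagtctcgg
The boxes lie in 4 of the 5 Egr2 windows, which overlap in part, and a CArG box was found on either strand in 1.47% of 32851 windows of all genes. Among the other matched members, Nab2, Nr4a1, Nr4a2, Nr4a3, Ier3 and Ier5, none had a CArG box in its window.

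In the NR4A family capitals mark the CRE core TGACG, searched on both strands (CGTCA on the other strand), and in Nr4a1 also an EGR site (GCGGGGGCG or GCGTGGGCG, here on the other strand). Nr4a1 is shown at chr15:101266596-101266845, plus strand, and Nr4a2 at chr2:57124004-57124253, minus strand. Nr4a3 is shown at chr4:48045055-48045152, plus strand, up to the first exon of the GENCODE annotation.
Nr4a1: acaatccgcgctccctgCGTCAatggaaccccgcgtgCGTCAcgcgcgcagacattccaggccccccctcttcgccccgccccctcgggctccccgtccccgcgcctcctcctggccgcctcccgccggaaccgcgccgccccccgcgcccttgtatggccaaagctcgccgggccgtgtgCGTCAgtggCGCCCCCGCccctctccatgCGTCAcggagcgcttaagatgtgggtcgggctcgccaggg
Nr4a2: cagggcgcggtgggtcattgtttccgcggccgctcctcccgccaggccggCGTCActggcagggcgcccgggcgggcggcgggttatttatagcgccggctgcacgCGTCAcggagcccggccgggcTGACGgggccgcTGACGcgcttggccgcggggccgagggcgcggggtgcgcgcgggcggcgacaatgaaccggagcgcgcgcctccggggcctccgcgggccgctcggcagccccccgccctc
Nr4a3: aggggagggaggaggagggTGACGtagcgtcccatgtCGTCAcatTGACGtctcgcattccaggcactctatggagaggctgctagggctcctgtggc
Each of the 3 NR4A windows of 250 bases held 4 such cores, 3 of them within the stretch printed for Nr4a3, while the Egr2 windows held 2 in 3 of 5 cases, on either side of the proximal CArG box, and 0.137% of the windows of all genes held at least 4 and 17.8% held at least 1. The full CRE, TGACGTCA, contains the core on both strands and was in no member's window, against 1.55% of all windows. An EGR site was in 3.06% of all windows, the SP1 site GGGCGG in 32.7% and the ETS core GGAA in 93.4%. Ier5 was the only matched member with no ETS core in its window. A match is a description of letters only, and the 3 NR4A genes with the same number of cores differed in level and change, as given below.

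The first comparison asks how the 10 transcripts differed between leukemia and normal pro-B cells. Egr1, Egr2, Egr3, Nab2, Nr4a1 and Ier2 rose in leukemia and none of the 10 fell. Of all 15280 tested genes, 9.54% were called higher and 20.2% in either direction (edgeR quasi-likelihood test, adjusted p under 0.05 over all genes, counts summed per leukemia). Summing leaves the spread between the libraries of a leukemia out of the SE and the p-value. In these 6 all 4 leukemia libraries also lay above both pro-B libraries, which held for 23.4% of all tested genes. The median log2 change of the 10 was 2.04, against 0.02 over all tested genes. The 10 genes and the gene lists used below were chosen with earlier results of these data known. Their shares and medians beside those of all genes are therefore descriptions. Nr4a2, Nr4a3, Ier3 and Ier5 did not pass. DESeq2 likewise called 6 higher and 0 lower, among 4769 of 15280 genes called in either direction. At an unadjusted p under 0.05 edgeR had 0 members lower.

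**Figure D1:**
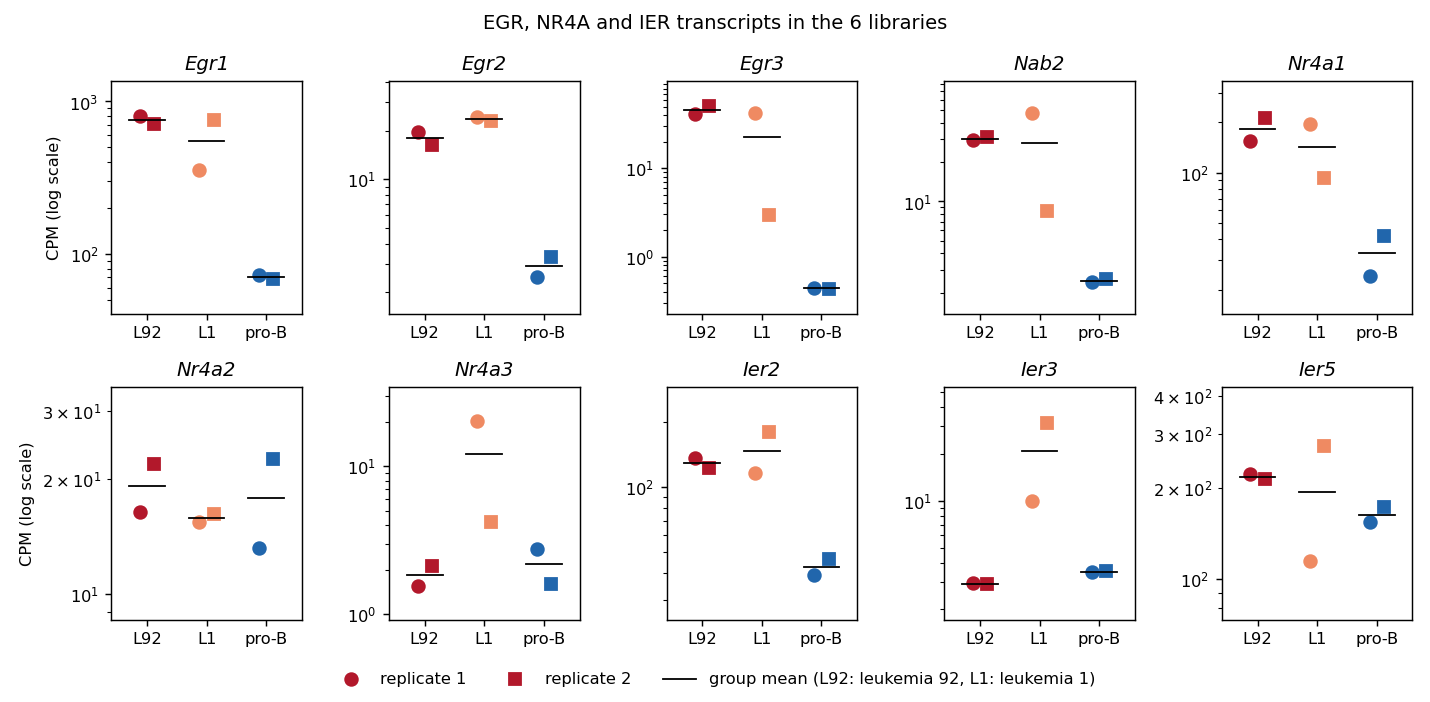
CPM on a log axis of each of the 10 transcripts in leukemia 92 (L92), leukemia 1 (L1) and pro-B libraries, circles for replicate 1, squares for replicate 2 and lines for group means. For Egr1, Egr2, Egr3, Nab2, Nr4a1 and Ier2 all 4 leukemia symbols lie above both pro-B symbols; for Nr4a2, Nr4a3 and Ier5 symbols of leukemia and pro-B cells overlap, and for Ier3 the L92 symbols lie below and the L1 symbols above those of pro-B cells.

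Egr1 encodes the founding zinc finger factor of the family and is a direct ERK-responsive gene. It stood at 803 and 713 CPM in replicates 1 and 2 of leukemia 92 and at 355 and 751 CPM in leukemia 1, against 72.3 and 68.6 CPM in pro-B cells. Every leukemia library was above both pro-B libraries, and replicate 1 of leukemia 1 was the lowest of the 4. The log2 change was 3.25 (SE 0.23, edgeR adjusted p = 0.011). Among the tested genes, 596 had a log2 change at least as high.

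Egr2, or Krox20, is the family member required for peripheral myelination and also acts in lymphocyte development. It had 19.5 and 16.3 CPM in leukemia 92 and 24.1 and 22.9 CPM in leukemia 1, against 2.48 and 3.32 CPM in pro-B cells. The 4 leukemia libraries lay close together, so Egr2 had the smallest difference of the 3 EGR genes between the libraries of leukemia 1 (a log2 difference of -0.07). Its log2 change against pro-B cells was 2.84 (SE 0.28, adjusted p = 0.015).

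Egr3 is a related factor of lymphocytes and muscle spindles. It had 41.2 and 51.2 CPM in leukemia 92 and 42.3 and 2.92 CPM in leukemia 1, against 0.445 and 0.429 CPM in pro-B cells, where 12 and 11 reads were counted. Replicate 2 of leukemia 1 stood far below the other 3 leukemia libraries and still above both pro-B libraries. The log2 change of 6.28 (SE 0.58, adjusted p = 0.015) was the largest of the 10, and 135 genes of all tested had a change at least as high. In a 3-group fit, over 6 libraries without summing, the change of Egr3 was 6.19 (SE 1.41, edgeR adjusted p = 0.0304).

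Nab2, the corepressor of EGR proteins, had 29.5 and 31.1 CPM in leukemia 92 and 48 and 8.43 CPM in leukemia 1, against 2.41 and 2.54 CPM in pro-B cells. Its log2 change was 3.55 (SE 0.21, adjusted p = 0.0084) with summed counts, and 3.56 (SE 0.82, edgeR adjusted p = 0.0312) in the 3-group fit. Replicate 2 of leukemia 1 was again the lowest leukemia library. Over the 6 libraries Nab2 and Egr3 had a Pearson correlation of 0.98 in log2(CPM + 1), and Nab2 and Egr1 one of 0.79. These are descriptions over 6 libraries in 3 groups, whose members share a leukemia or a cell type. Nab1, the other NAB corepressor, had 146 and 140 CPM in leukemia 92 and 268 and 101 CPM in leukemia 1, against 100 and 106 CPM in pro-B cells. In replicate 2 of leukemia 1 it lay between the pro-B values. Egr4, the remaining EGR gene, had at most 0.366 CPM in any library and was not tested.

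Counting reads of Nab2 per 100 reads of Egr1 gives a ratio within a library that does not depend on its depth. It was 3.67 and 4.36 in leukemia 92 and 13.5 and 1.12 in leukemia 1, against 3.33 and 3.7 in pro-B cells. The values of leukemia 92 lay near those of pro-B cells, although both transcripts were higher in leukemia 92. For Egr3 per 100 reads of Egr1 the values were 5.14 and 7.18 in leukemia 92 and 11.9 and 0.389 in leukemia 1, against 0.614 and 0.626 in pro-B cells. The libraries of leukemia 1 were thus the highest and the lowest of all 6 in both ratios.

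Nr4a1, or NUR77, is the orphan receptor used as a reporter of antigen receptor signalling in mouse lymphocytes. It had 154 and 211 CPM in leukemia 92 and 194 and 92.5 CPM in leukemia 1, against 24 and 41.9 CPM in pro-B cells. All 4 leukemia libraries were higher, with a log2 change of 2.3 (SE 0.35, adjusted p = 0.027). Reads of Nr4a3 per 100 reads of Nr4a1 were 1.01 and 0.995 in leukemia 92 and 10.4 and 4.52 in leukemia 1, against 11.4 and 3.82 in pro-B cells, so that leukemia 92 lay below the other libraries.

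Nr4a2, or NURR1, known for its need in midbrain dopamine neurons, had 16.4 and 21.8 CPM in leukemia 92 and 15.4 and 16.2 CPM in leukemia 1, against 13.2 and 22.5 CPM in pro-B cells. The pro-B libraries were the lowest and the highest of the 6, so the groups overlapped. The log2 change was -0.02 (SE 0.33, adjusted p = 0.97).

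Nr4a3, or NOR1, acts with Nr4a1 as a suppressor of myeloid leukemia in mice. It had 1.56 and 2.1 CPM in leukemia 92 and 20.1 and 4.18 CPM in leukemia 1, against 2.74 and 1.6 CPM in pro-B cells. Only the leukemia 1 libraries were above both pro-B libraries, and the leukemia 92 values overlapped the pro-B values. The log2 change over both leukemias was 1.62 (SE 0.98, adjusted p = 0.3).

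Ier2 encodes a small nuclear early response protein. It had 136 and 123 CPM in leukemia 92 and 116 and 180 CPM in leukemia 1, against 39.2 and 46.4 CPM in pro-B cells. The groups did not overlap, and the log2 change was 1.71 (SE 0.15, adjusted p = 0.013). Ier2 changed least of the 6 called genes and kept an adjusted p under 0.05 without either library of leukemia 1.

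Ier3, or IEX-1, is a stress-induced regulator of cell survival that is phosphorylated by ERK. It had 2.96 and 2.9 CPM in leukemia 92 and 9.96 and 31.7 CPM in leukemia 1, against 3.48 and 3.51 CPM in pro-B cells. Leukemia 1 was above pro-B cells in both libraries and leukemia 92 below in both. The log2 change over both leukemias was 1.77 (SE 0.98, adjusted p = 0.26). Ier3 was highest in replicate 2 of leukemia 1, where the granulocyte markers summed to 16100 CPM. In replicate 1 of leukemia 1 these markers summed to 175 CPM. The part of granulocyte transcripts in the Ier3 values was not tested.

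Ier5, a regulator that acts with the phosphatase PP2A on heat shock factor, had 222 and 213 CPM in leukemia 92 and 115 and 273 CPM in leukemia 1, against 154 and 172 CPM in pro-B cells. Leukemia 1 held both the lowest and the highest value of all 6 libraries. The log2 change was 0.36 (SE 0.14, adjusted p = 0.15).

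The 6 calls depended on the libraries used. Without replicate 2 of leukemia 1, 6 members were called, and 2718 of 14418 genes in either direction. Without replicate 1, 3 members were called, Egr1, Egr2 and Ier2, and 1957 of 14631 genes in either direction. Egr3 (log2 change 5.83, adjusted p = 0.096), Nab2 (2.99, adjusted p = 0.078) and Nr4a1 (2.08, adjusted p = 0.072) then did not pass. Without pro-B replicate 1, or without pro-B replicate 2, edgeR called 0 members and 0 genes of the whole table. In these fits with a single pro-B library, the log2 changes of the 6 genes ranged between 1.58 and 6.29.

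Each leukemia was then compared with pro-B cells in a fit over all 6 libraries with a coefficient per group. The comparisons share the pro-B libraries, so they are given side by side. They also share an estimate of the spread over all groups. The SE and p-value for leukemia 92 thus also take in the wide spread between the leukemia 1 libraries. In leukemia 92, 6 of 10 members were higher, against 14.7% of 14979 tested genes (31.4% in either direction): Egr1 (log2 change 3.43), Egr2 (2.63), Egr3 (6.71, SE 1.48), Nab2 (3.61), Nr4a1 (2.47) and Ier2 (1.6). Nr4a2 (0.1), Nr4a3 (-0.25), Ier3 (-0.25) and Ier5 (0.42) did not pass. In leukemia 1, 6 of 10 were higher, against 9.55% of all tested genes (20.3% in either direction): Egr1 (2.97), Egr2 (3.02), Nab2 (3.51, SE 0.86, adjusted p = 0.0496), Nr4a1 (2.12), Ier2 (1.79) and Ier3 (2.57, SE 0.59, adjusted p = 0.042). Egr3 in leukemia 1 had a log2 change of 5.68 (SE 1.43) with an adjusted p of 0.0528, and Nr4a3 one of 2.48 (SE 0.83, adjusted p = 0.1). DESeq2 called 8 members higher in leukemia 1, Egr3 (adjusted p = 1.64e-06) and Nr4a3 (adjusted p = 0.0167) among them. Over the whole table it called 4555 of 14979 genes in either direction. With no filter on low counts edgeR called 7 members, Egr3 included (adjusted p = 0.0497), and 2698 of 23173 genes. With RLE normalisation edgeR called 5 members, without Nab2 (adjusted p = 0.0507), and 3009 of 14979 genes. Nr4a2 (-0.17) and Ier5 (0.25) did not pass either. No member was lower in either comparison with edgeR, at an unadjusted p under 0.05 or with DESeq2.

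These calls of single leukemias rest on few libraries. Leaving out 1 library of leukemia 92 or of pro-B cells left 1 member called in leukemia 92, Egr2, while the genes called over the whole table went down to 472 to 631, against 4696 with all libraries. In leukemia 1, Egr2 alone was called without 1 library of leukemia 92, with 727 to 731 genes called over the whole table, against 3038 with all libraries. Without 1 pro-B library 0 genes and 0 members were called, and at an unadjusted p under 0.05 edgeR had 5 members higher, among 2973 of 15666 and 2997 of 15680 genes changed in either direction. With a single library of leukemia 1 the spread came from the pairs of the other groups, so only log2 changes are given. The value of Ier5 turned, at 0.74 without replicate 1 and -0.54 without replicate 2. Nr4a3 had 0.93 and 3.16 in these fits, and Nr4a1 had 1.48 without replicate 1.

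**Figure D2:**
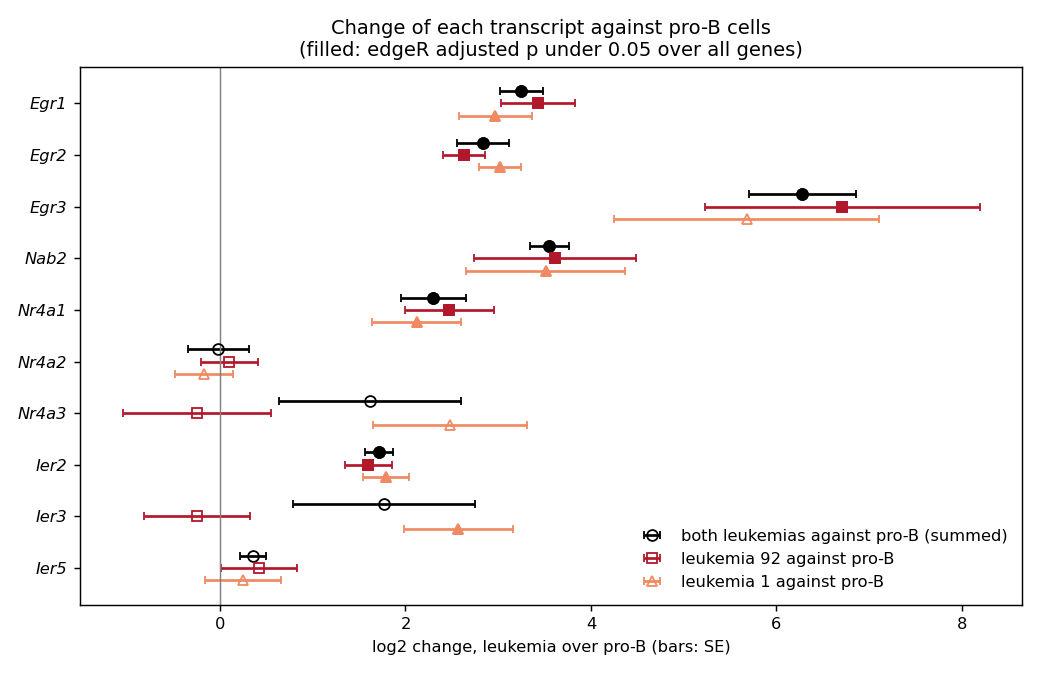
Log2 change with SE of each of the 10 transcripts against pro-B cells, for both leukemias summed (circles), leukemia 92 (squares) and leukemia 1 (triangles), filled where the edgeR adjusted p was under 0.05. Egr1, Egr2, Nab2, Nr4a1 and Ier2 are filled in all 3, Egr3 is open for leukemia 1 (adjusted p = 0.0528), and the values of Nr4a3 and Ier3 for leukemia 92 (-0.25 each) lie apart from those for leukemia 1.

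Leukemia 92 was set against leukemia 1 directly, as the test of whether the members differ between them. By edgeR 0 of the 10 were called, against 3.09% of 14979 tested genes (1.82% higher and 1.27% lower). Without adjustment 2 were lower and 0 higher at p under 0.05, among 3759 of 14979 genes changed in either direction. The 2 were Ier3, with a log2 change of -2.83 (SE 0.6, adjusted p = 0.077), and Nr4a3, with -2.73 (SE 0.84, adjusted p = 0.14). DESeq2 called 0 higher and 2 lower, the same Ier3 (adjusted p = 0.000154) and Nr4a3 (adjusted p = 0.0121). Over the whole table DESeq2 called 2667 of 14979 genes in either direction. Both libraries of leukemia 92 lay below both of leukemia 1 for 3 members, Egr2, Nr4a3 and Ier3, and above them for 1, Nr4a2. The background shares of such genes were 25.8% and 25.4%.

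The other 8 members had log2 changes between -0.39 (Egr2) and 1.03 (Egr3, SE 1.11). An adjusted p over the threshold does not show that these levels were alike, since the spread within leukemia 1 was wide. With a single leukemia 1 library left, the spread came from the close pairs of leukemia 92 and pro-B cells, and the lone library was assumed to vary like them. For that reason only log2 changes are given for these fits. Ier3 and Nr4a3 had -3.42 and -1.18 without replicate 1 of leukemia 1, and -1.76 and -3.46 without its replicate 2. Nab2 turned direction between these fits. Its log2 change was 1.85 without replicate 1 and -0.66 without replicate 2. Ier5 turned as well, at -0.32 and 0.92.

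The libraries of leukemia 1 split the members in 2 directions. The log2 difference, replicate 2 minus replicate 1, was -3.46 for Egr3, -2.38 for Nab2, -2.03 for Nr4a3 and -1.06 for Nr4a1. It was 1.58 for Ier3, 1.24 for Ier5, 1.08 for Egr1 and 0.62 for Ier2, while Egr2 (-0.07) and Nr4a2 (0.07) hardly differed. The difference of Egr3 was larger than that of 98.9% of all tested genes between these libraries, that of Nab2 larger than 96.9% and that of Nr4a3 larger than 95.6%.

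**Figure D3:**
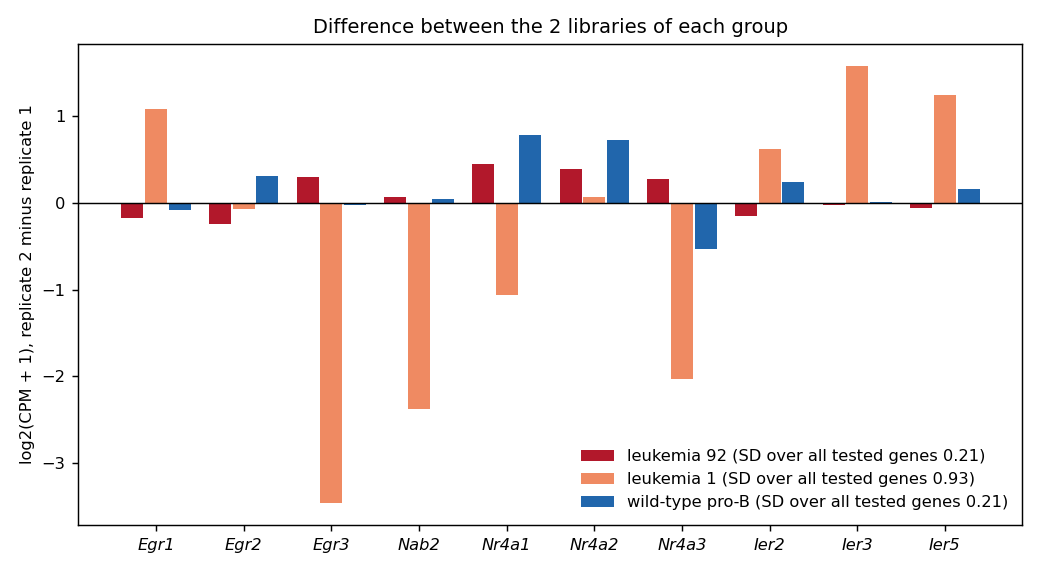
Log2(CPM + 1) of replicate 2 minus replicate 1 for each of the 10 transcripts in leukemia 92, leukemia 1 and pro-B cells, with the SD over all tested genes of each group in the legend. In leukemia 1 the bars run from -3.46 for Egr3 to 1.58 for Ier3; in leukemia 92 they stay within -0.24 and 0.45, and in pro-B cells within -0.53 and 0.78.

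Between the pro-B libraries the NR4A genes differed most of the members. The log2 difference was 0.78 for Nr4a1, 0.73 for Nr4a2 and -0.53 for Nr4a3, each larger than that of at least 98.2% of all tested genes in that pair. In leukemia 92 the differences were 0.45, 0.39 and 0.28.

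Levels of different genes were compared per kilobase of exon, with lengths from the GENCODE annotation of GRCm38, while the counts were made on mm9. In leukemia Egr1 was the most abundant member, at a mean of 146 CPM per kilobase (79.2 to 179). Ier2 followed at 91.2 (76.5 to 118), then Ier5 at 62.8 (35.1 to 83.4) and Nr4a1 at 60.9 (34.5 to 78.9). The ranges of neighbours among these 4 overlapped. Separate from them, Nab2 (11.3), Ier3 (10.5), Egr3 (8.38), Egr2 (6.5), Nr4a2 (4.67) and Nr4a3 (1.22) came next. Neighbours among these overlapped too, except Nr4a3 (0.273 to 3.52), which lay below Nr4a2 (4.13 to 5.83). The place of Ier3 differed between the leukemias: it had 2.59 CPM per kilobase in leukemia 92, below Egr2 (5.62) and Nr4a2 (5.11), and 18.4 in leukemia 1, above Nab2 (10.9).

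In pro-B cells the order was another one. Ier5 led at 49.7 CPM per kilobase (47 to 52.4), before Ier2 at 28.1 (25.8 to 30.5), Egr1 at 15.7 (15.3 to 16.1) and Nr4a1 at 12.3 (8.96 to 15.6). Egr1 and Nr4a1 overlapped, and Ier5, Ier2 and Egr1 were separate in these 2 libraries. Nr4a2 (4.76), Ier3 (3.09), Nab2 (0.957), Egr2 (0.91), Nr4a3 (0.379) and Egr3 (0.106) followed, of which Nab2 and Egr2 overlapped. Among 28537 genes with a length, Egr1 ranked 313th and 358th per kilobase in leukemia 92 and 884th and 367th in leukemia 1, against 4120th and 4342nd in pro-B cells. Ier5 ranked 1043rd and 1097th in leukemia 92 and 2283rd and 861st in leukemia 1, against 1434th and 1266th in pro-B cells.

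The genes most like Egr1 and Nr4a1 over the 6 libraries were taken from 7159 genes with a mean of at least 20 CPM, by Pearson correlation of log2(CPM + 1). For Egr1 these were Atp6v0e (0.999), a subunit of the vacuolar proton pump, Nfu1 (0.998), Rps19 (0.998), Ckb (0.998), a creatine kinase, and Cklf (0.998). Ckb had 88.1 and 87.6 CPM in leukemia 92 and 23.6 and 76.1 CPM in leukemia 1, against 0.593 and 0.897 CPM in pro-B cells. For Nr4a1 they were Ppp2r5b (0.991), Otub1 (0.989), D8Ertd82e (0.987), Sema7a (0.987), a membrane-anchored semaphorin, and Robo3 (0.987). Sema7a had 146 and 213 CPM in leukemia 92 and 187 and 74.5 CPM in leukemia 1, against 27.2 and 32.2 CPM in pro-B cells, nearly the values of Nr4a1 itself. These correlations over 6 libraries are descriptions only.

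Among 41 other immediate early genes, 39 were tested in leukemia against pro-B cells: 13 rose, 0 fell and 26 did not pass, with a median log2 change of 1 against 0.02 over all genes. DESeq2 called 20 higher and 4 lower. Without replicate 2 of leukemia 1, 8 rose and 2 fell by edgeR. The ERK phosphatase gene Dusp6 rose by 1.87 on the log2 scale (SE 0.11), and the survival gene Mcl1 by 1.2 (SE 0.11). Klf2, a factor of lymphocyte quiescence, had a log2 change of 2.22 (SE 0.14, adjusted p = 0.0087). Leaving out replicate 2 of leukemia 1 gave 1.5 (adjusted p = 0.32), and the 3-group fit 2.18 (adjusted p = 0.14). Klf2 had 214 and 192 CPM in leukemia 92 and 35 and 338 CPM in leukemia 1, against 40.2 and 45.8 CPM in pro-B cells. Neither leukemia alone passed for it (edgeR adjusted p = 0.16 in leukemia 92 and 0.2 in leukemia 1). The AP-1 gene Jun, chosen after its values were seen, had a log2 change of -0.53 (adjusted p = 0.094). It had 174 and 168 CPM in leukemia 92 and 56.3 and 351 CPM in leukemia 1, against 301 and 252 CPM in pro-B cells.

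**Figure D4:**
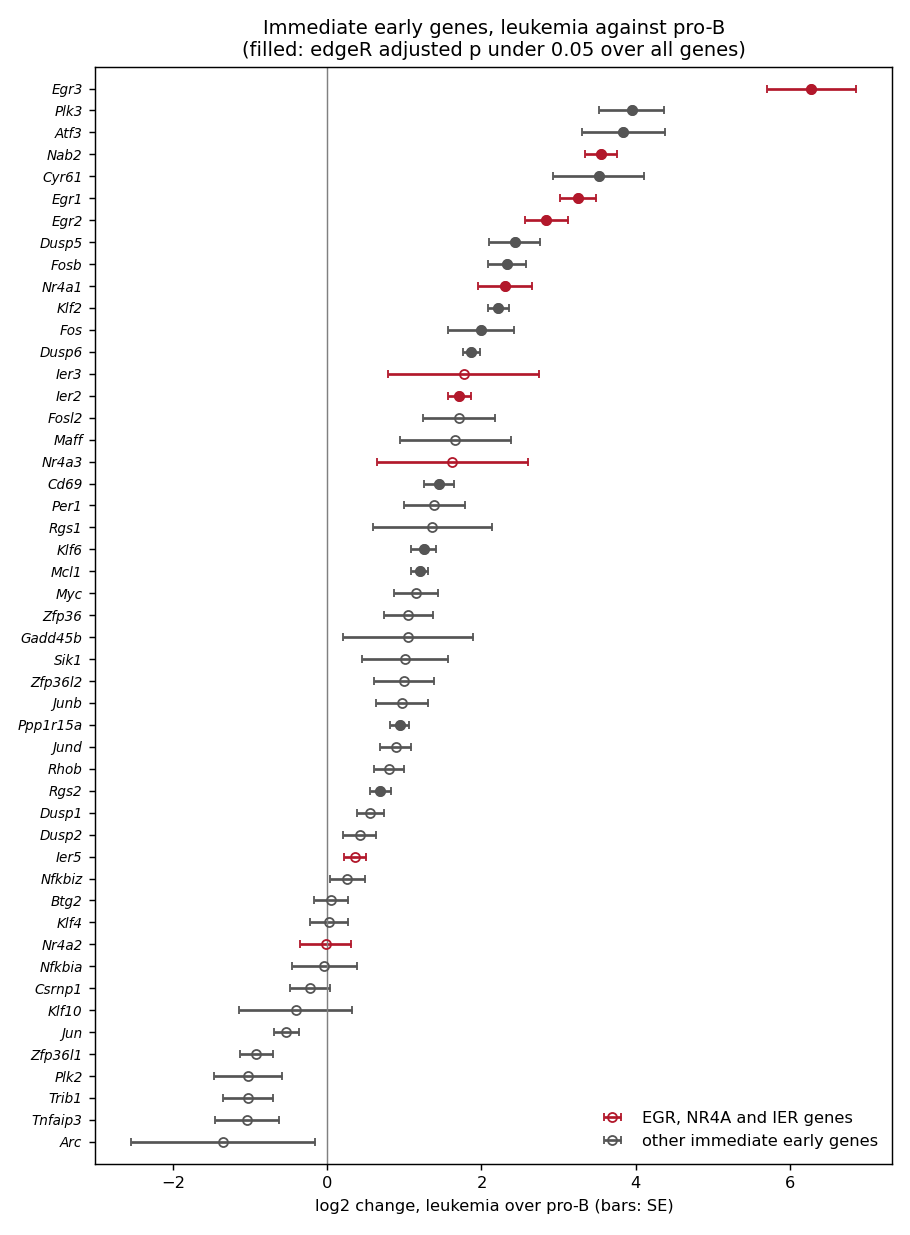
Log2 change with SE, leukemia over pro-B cells (counts summed per leukemia), of the 10 EGR, NR4A and IER genes (red) and the 39 tested other immediate early genes (grey), in order of change and filled where the edgeR adjusted p was under 0.05. Egr3 is at the top at 6.28, and 6 red and 13 grey points are filled, all to the right of 0.

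In leukemia 92 against leukemia 1, 1 other early gene was higher, the kinase gene Sik1 (log2 change 1.41), and 3 were lower, among them the stress gene Gadd45b (-2.49) and the NF-kB inhibitor Nfkbia (-1.21). These calls were lost without either library of leukemia 92 (adjusted p of 0.29 to 0.43), and without any 1 library of leukemia 92 or of pro-B cells edgeR called 0 genes of the whole table in this comparison, with 1552 to 2303 at an unadjusted p under 0.05.

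Over both leukemias, of 6 tested regulators of the SRF and ternary complex group, 1 rose, Mkl1, an actin-sensing SRF coactivator (log2 change 0.75, SE 0.13, adjusted p = 0.033), and 5 did not pass. Srf itself had 70.1 and 72.7 CPM in leukemia 92 and 63.8 and 74 CPM in leukemia 1, against 49 and 52.9 CPM in pro-B cells (log2 change 0.47, adjusted p = 0.07). In leukemia 92 against pro-B cells 3 of the 6 were higher, Srf (0.49, adjusted p = 0.048), Mkl1 (0.8, adjusted p = 0.0091) and Mkl2 (0.76, adjusted p = 0.033), and Elk3, a ternary complex factor, was lower (-0.52, adjusted p = 0.04). In leukemia 1 against pro-B cells Mkl1 was called (0.69, edgeR adjusted p = 0.02). That call was lost without any 1 library of leukemia 92 or of pro-B cells, and with the replicate number added to the fit. Of 12 regulators of the CREB and calcium to NFAT group, 0 were called by edgeR in leukemia against pro-B cells, 0 had an unadjusted p under 0.05 and DESeq2 called 0. In leukemia 92 against pro-B cells 2 of the 12 were higher, Ppp3ca (1.32, adjusted p = 0.0053) and the CREB coactivator gene Crtc2 (0.58, adjusted p = 0.048), and in leukemia 1 its relative Crtc1 was lower (-1.19, adjusted p = 0.01). Without 1 library of leukemia 92 or of pro-B cells, 0 of the regulators on both lists were called in leukemia 92. Ppp3ca, the catalytic subunit of calcineurin, was higher in leukemia 92 than in leukemia 1 (log2 change 1.17, adjusted p = 0.035), a call lost without either library of leukemia 92 (adjusted p of 0.33 to 0.39). The glucocorticoid receptor Nr3c1 was the 1 of 3 tested nuclear receptors called lower (-0.68, adjusted p = 0.048). Its adjusted p was 0.12 with replicate 1 of leukemia 1 left out, 0.16 with its replicate 2 left out and 0.06 with replicate 2 of leukemia 92 left out.

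Of 17 genes linked to EGR or NR4A factors in lymphocytes or other cells, 5 rose, 2 fell and 10 did not pass, with a median log2 change of 0.46. Without replicate 1 of leukemia 1, 3 rose and 1 fell. Tnf, a cytokine gene, rose by 5.41 (SE 0.21, adjusted p = 0.0065), the cell cycle inhibitor Cdkn1a by 3.68 (SE 0.25) and the repressor Bcl6 by 1.03 (SE 0.14). Tnf had 134 and 133 CPM in leukemia 92 and 200 and 142 CPM in leukemia 1, against 3.22 and 3.9 CPM in pro-B cells. The ubiquitin ligase gene Cblb fell by 0.99 (SE 0.13). The death ligand gene Fasl fell by 4.32 (SE 0.72, edgeR adjusted p = 0.031, and 0.061 without replicate 1 of leukemia 1). The sum of the T and NK cell markers was also lower in leukemia, and a part of such cells in the Fasl change was not tested. Id3, an inhibitor of E proteins, was lower in leukemia 92 than in leukemia 1, at 2.06 and 2.48 CPM against 14.3 and 22.2 CPM, with 42.9 and 42.4 CPM in pro-B cells. Its log2 change of -3.01 (adjusted p = 0.027) lost its call without either library of leukemia 92 (adjusted p of 0.29 to 0.34). In the same comparison the cyclin gene Ccnd1 (0.96) and the lymphocyte receptor gene Cd5 (1.64) were called higher in leukemia 92.

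Of 11 tested heat shock and handling response genes, 2 rose and 9 did not pass, with a median log2 change of -0.15. Hmox1, a heme-degrading enzyme, rose by 2.96 (SE 0.23, adjusted p = 0.012, and 0.086 without replicate 2 of leukemia 1). The inducible chaperone Hspa1a had a log2 change of 3.9 (SE 0.84, adjusted p = 0.048), at most 7.47 CPM in any library, and an adjusted p of 0.072 with replicate 1 of leukemia 1 left out and of 0.053 with replicate 2 of leukemia 92 left out. The list summed to 2380 and 2440 CPM in leukemia 92 and 2910 and 2930 CPM in leukemia 1, against 3500 and 3050 CPM in pro-B cells. The cochaperone gene Dnajb1 was called lower in leukemia 92 than in leukemia 1 (log2 change -0.97, adjusted p = 0.048).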

How the data were processed

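Values are read counts by gene as the authors deposited them, in whole numbers. Per the submitters' processing notes the tools were STAR 2.4, HTSeq 0.6.1 and DESeq2 and the build was mm9, with roles unstated. No gene model or strandedness of the counting is given in the sources used here. The 5 entries that name no gene held 34% to 39.6% of a library and were left out. CPM was scaled by TMM over 14979 genes. Differences were tested with edgeR (version 4.0.16, under R 4.3.3), after filterByExpr at a minimum of 10 counts (robust quasi-likelihood test, Benjamini-Hochberg adjustment over all tested genes, called at an adjusted p under 0.05). Leukemia against pro-B cells used counts summed over the 2 libraries of each leukemia. The other comparisons used 6 libraries with a coefficient per group. The SE comes from the F statistic. Alternatives were RLE normalisation, no filter, DESeq2 1.42.0, each library left out, a 3-group fit and a replicate block. The pipeline was tested on simulated data. The floor of 3 counts covers counting error alone, while the SE also takes in the spread between the libraries or sums that were fitted. The 10 genes and the lists were chosen with earlier results of these data known. Genes of the lists are named by a rule: for leukemia against pro-B cells up to 3 called per direction, ranked by p, and for leukemia 92 against leukemia 1 up to 2. The most alike genes exclude predicted genes and immunoglobulin and receptor segments. Promoters are RefSeq's, build GRCm38.p6.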

Additional observations from a re-analysis of the deposited data

Results flagged for a closer look

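Among the 4 leukemia libraries, 2 values stood apart from the other 3 by the gap to the nearest value (above Dixon's critical value, which chance exceeds in about 1 of 20 groups): Nr4a3 in replicate 1 of leukemia 1, at 20.1 CPM (ratio 0.859), and Nr4a2 in replicate 2 of leukemia 92, at 21.8 CPM (ratio 0.849). The leukemias differed in direction against the mean of pro-B cells for 2 genes, with every library of leukemia 92 below it and every library of leukemia 1 above it. The test of that difference gave Nr4a3 a log2 change of -2.73 (edgeR adjusted p = 0.14) and Ier3 one of -2.83 (adjusted p = 0.077), leukemia 92 over leukemia 1. The Nr4a3 values of leukemia 92 overlapped those of the pro-B libraries.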

How the results depend on the processing

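RLE normalisation and no filter on low counts left 6 members higher in leukemia and 0 lower. Genes called in either direction were then 3050 of 15280 and 3092 of 23173. With 1 library left out, members called higher ranged from 0 to 6 in leukemia against pro-B cells, 1 to 7 in leukemia 92 and 0 to 8 in leukemia 1 (lower: 0 to 1). In leukemia 92 against leukemia 1 they ranged from 0 to 2 higher and 0 to 4 lower. Over all genes, calls higher and lower ranged from 0 to 1544 and 0 to 1725, from 279 to 4994 and 190 to 5965, from 0 to 4580 and 0 to 5061, and from 0 to 3909 and 0 to 4224 in these 4 comparisons. Outside leukemia against pro-B cells, the upper ends of these ranges come from fits with a lone leukemia 1 library. The spread in those fits came from the close pairs of the other groups, so their counts are not comparable with the rest. The DESeq2 numbers were 2335 higher in leukemia, 2286 higher in leukemia 1, and 1322 higher and 1345 lower, 2 of them members, in leukemia 92 against leukemia 1. The 3-group fit called 2605 lower in leukemia. Leaving out 1 library moved small log2 changes across 0: Nr4a2 between -0.38 and 0.39 in leukemia, -0.24 and 0.53 in leukemia 92 and -0.51 and 0.26 in leukemia 1, Nr4a3 between -0.58 and 0.19 in leukemia 92, and Ier5 between -0.54 and 0.74 in leukemia 1. In leukemia 92 against leukemia 1 the ranges were -0.47 to 0.16 for Ier2, -0.32 to 0.92 for Ier5, -0.66 to 1.85 for Nab2 and -0.085 to 0.99 for Nr4a1. The cause was not tested.

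What same-numbered libraries share besides a number is not stated. Their deviations correlated at -0.18 to 0.055 between groups, and with 2 libraries per group this cannot tell whether a batch was shared. With the replicate block, calls were 1597 lower in leukemia 92, 701 higher and 738 lower in leukemia 1, with 3 members higher, 5 members higher in leukemia 92 without Nab2 (adjusted p = 0.0527), and 0 higher and 0 lower in leukemia 92 against leukemia 1 (3042 genes at an unadjusted p under 0.05). In the 3-group fit with the block, 5 members were higher in leukemia, without Nab2 (adjusted p = 0.0512), and Nr4a2 had a log2 change of 0.0019. A crossed pairing of the leukemia numbers, chosen after seeing the data, also gave 0 and 0. Depth limits Egr3 in pro-B cells (12 and 11 reads) and Egr4 most.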
